A study of Homo sapiens with 20 samples.

Results

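The 10 globin genes of human erythroid cells were followed across a differentiation time course of HUDEP-2 cells, an immortalized line of erythroid progenitors derived from umbilical cord blood. The members were chosen by symbol: HBA1, HBA2, HBZ, HBM and HBQ1 of the alpha-like family and HBB, HBD, HBG1, HBG2 and HBE1 of the beta-like family, 10 of the 46425 gene symbols in the deposited tables. All 10 passed the filter on low counts. Wild-type cells were sampled on day 0, when they were kept in StemSpan SFEM with EPO, SCF and doxycycline (and, per the study's methods but not the labels, dexamethasone, which the differentiation medium is not said to hold), and on days 1 to 8 and 12 in IMDM-based differentiation medium with holo-transferrin, AB serum, heparin, insulin, glutamine, EPO, SCF and doxycycline. SCF was withdrawn on day 6 and doxycycline on day 8. All groups are therefore 1 cell line, which carries its immortalizing transgene, and day 0 differs from the other days in medium as well as in time. Later days also differ from earlier ones by these withdrawals, so medium and time cannot be told apart there either. The study assigned days 4 to 6 to the basophilic, day 8 to the polychromatic and day 12 to the orthochromatic erythroblast and reticulocyte stage. A pair of libraries was made for each of the 10 days, which gives 20. One library of each day (library A) stands in a table that spans all days, and the other (library B) in tables of separate days. Those tables hold days 0 to 6, days 7 and 8, and day 12. Nothing in the labels says whether the libraries of a day came from separate cultures, so p-values measure only the spread between these libraries, which may be technical.

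Hemoglobin is a tetramer of a pair of alpha-like and a pair of beta-like chains around heme. The alpha-like genes lie on chromosome 16 and the beta-like genes on chromosome 11, and each cluster is switched on by a distal enhancer region that is active in erythroid cells. In the embryo zeta (HBZ) and epsilon (HBE1) chains are made, in the fetus alpha (HBA1, HBA2) and gamma (HBG1, HBG2) chains, and in the adult alpha and beta (HBB) chains with a little delta (HBD). HBM (mu globin) and HBQ1 (theta globin) are transcribed in erythroid cells, but no hemoglobin with their products is known. Free alpha chains are unstable and harm the cell, which is why the balance between alpha-like and beta-like transcripts is of interest.

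In hg38 coordinates the alpha-like transcripts, all on the plus strand, were HBZ at chr16:152644-154503, HBM at chr16:165978-166764, HBA2 at chr16:172876-173710, HBA1 at chr16:176680-177522 and HBQ1 at chr16:180459-181179. The beta-like transcripts, all on the minus strand, were HBB at chr11:5225464-5227071, HBD at chr11:5232838-5234483, HBG1 at chr11:5248269-5249857, HBG2 at chr11:5253188-5254781 and HBE1 at chr11:5268345-5269945. Each member was represented by 1 RefSeq transcript. Of the reference transcripts, HBA1 shared 79.7% of its 100-base windows exactly with HBA2, and HBG1 shared 53.9% with HBG2, whereas HBB shared 0 of 529 with HBD. Values of HBA1 against HBA2 and of HBG1 against HBG2 are therefore uncertain, since how reads common to near-identical copies were counted is not known. Their sums do not depend on how such reads were divided, but would be too low if such reads were dropped.

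Promoter sequence was at hand for 2 members, HBD and HBM, the members whose call from day 8 to day 12 differed between the count and TPM scales described below. The 120 bases before the annotated start (RefSeq, GRCh38.p14) are chr11:5234484-5234603 on the minus strand for HBD and chr16:165858-165977 on the plus strand for HBM. Capitals mark each match, on either strand, to CACCC (the motif of KLF1 and its relatives), the box CCAAT (the motif of NF-Y), GATAA (the motif of GATA1) or the TATA-like ATAAA, none of which overlapped another here.
HBD: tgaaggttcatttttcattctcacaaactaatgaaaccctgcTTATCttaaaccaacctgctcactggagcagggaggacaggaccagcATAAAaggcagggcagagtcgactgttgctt
HBM: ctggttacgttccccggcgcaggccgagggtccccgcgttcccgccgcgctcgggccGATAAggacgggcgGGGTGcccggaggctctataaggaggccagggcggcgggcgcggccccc
The HBD window held GATAA, in reverse, from position -78 and ATAAA from -31, counted back from the start. The HBM window held GATAA from -63 and CACCC, in reverse, from -49. Of 35116 promoters of the same length, 9.65% held GATAA on either strand, 33.6% held CACCC, 20.4% held the box CCAAT and 17.8% held the TATA-like ATAAA. These letters are a description of the windows and not evidence of binding.

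Totals per library ranged from 52131713 to 70358198 counts, so that 3 counts, the limit that a count of 0 allows, come to 0.0426 to 0.0575 CPM, that is, as counts relative to each library's total. Intervals and limits given here cover counting error only. The libraries of a day differed beyond counting noise on each of the 10 days, with a chi-square per degree of freedom of at least 88.7, and were counted as 2 samples. Genes annotated as ribosomal RNA took 17.5% and 18.5% of the counts of library B on days 8 and 7, against 1.03% to 4.08% in the other 18 libraries. The erythroid markers EPOR, TFRC, SLC4A1 and ANK1 were present in every library, with a summed level of 1772 to 5947 TPM (abundance scaled for transcript length and to a fixed sum per library). PF4 and CD3E were at 0 counts in all 20 libraries and MPO in 19, and the 3 myeloid markers (MPO, LYZ, CD14) summed to at most 1.49 TPM and the 2 lymphoid ones (CD3E, CD79A) to at most 0.668 TPM. Of the megakaryocyte list (PF4, ITGA2B, GP9), ITGA2B made up nearly all of the sum, 10.7 and 69.0 TPM on day 0 and 0.465 and 1.03 TPM on day 12. The mast cell and basophil list (CPA3, MS4A2, TPSAB1) summed to 537 and 1018 TPM on day 0, almost all of it TPSAB1, and to at most 0.662 TPM on day 12. The decline of these lists ran alongside the increases of globin below, and its part in them was not tested. In bulk RNA fewer cells of a kind and less RNA per cell cannot be told apart.

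The globin genes together took 0.819% (library A) and 0.859% (library B) of all counts on day 0. On day 4 they took 2.92% and 3.07%, on day 8 8.49% and 9.85%, and on day 12 33.7% and 28.2%. No 2 days overlapped. The share was 1.61% and 1.46% on day 1. In percentage points the largest jumps were between days 6 and 7 (3.36% and 4.39% to 8.32% and 7.502%) and between days 8 and 12. No day was sampled within the latter. Genes annotated as ribosomal RNA took 1.77%, 18.5%, 17.5% and 4.08% of the counts of library B on days 6, 7, 8 and 12. The globin shares of library B on days 7 and 8 are lowered by this. In library B both jumps fall where its values pass from 1 table to the next, so day and table change together there. Library A stands in 1 table throughout. In both libraries SCF was withdrawn on day 6 and doxycycline on day 8, so medium and day change together at both jumps. The share correlated with the day over 20 libraries (Pearson's r = 0.86, permutation p = 1e-05, adjusted 8e-05; Spearman's rho = 0.996, permutation p = 1e-05, adjusted 8e-05). This p is the smallest that 100000 resamples can give, all permutation tests were two-sided, and adjustment was over 8 trends. The resampling treated all 20 libraries as independent points. Libraries of a day or of a set of tables may not be independent, so the p-values of the trends may be too small. Without the day 12 libraries r was 0.90, and it was 0.84 in library A and 0.88 in library B taken alone. In TPM, where each transcript is scaled for its length and each library to the same sum, the share was 2.90% and 2.91% on day 0 and 63.0% and 59.4% on day 12. On day 12 most of the fixed TPM sum was thus globin, which lowers the TPM of every other transcript.

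Changes between days were tested with edgeR's quasi-likelihood test on counts in 1 fit of all 20 libraries, scaled by TMM, which sets the bulk of genes rather than the total as the reference, and adjusted by the Benjamini-Hochberg method over 16784 genes. The TMM factors were 0.464 and 0.544 on day 12 against 1.09 to 1.17 on days 0 to 6. Day 12 values thus stand higher on this scale, relative to those days, than as shares of the library. A gene is called where its adjusted p was under 0.05. From day 0 to day 4, 7 of the 10 members were called higher and 0 lower, where 2.93% of all genes tested were called higher and 2.35% lower. From day 0 to day 8, 8 were called higher and 0 lower, against 17.7% and 19.4% of all genes. From day 8 to day 12, 8 were called higher and 0 lower, against 23.8% and 33.4% of all genes, and from day 0 to day 12 all 10 were called higher, against 29.7% of all genes higher and 38.5% lower. The members' median log2 fold change was 2.25, 3.84, 2.80 and 6.54 in these 4 comparisons, and that of all genes -0.01, 0, -0.20 and -0.29. The comparisons share the day 0 and day 8 libraries. On log2(TPM + 1) in limma the median of all genes lay at -0.08, -0.34, -0.68 and -1.12, and the calls that differed there were those of HBM and HBD from day 8 to day 12 and of HBZ from day 0 to day 12. Without library B of days 7 and 8 the counts from day 0 to day 8 and from day 8 to day 12 were again 8 and 8. With the set of tables as a block, 8, 9, 9 and 10 members were called higher, HBZ being the gene that gained a call in the first 3 comparisons. The share of all genes called was not taken in these alternative fits. Their counts are therefore not read as particular to the globin genes.

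**Figure D1:**
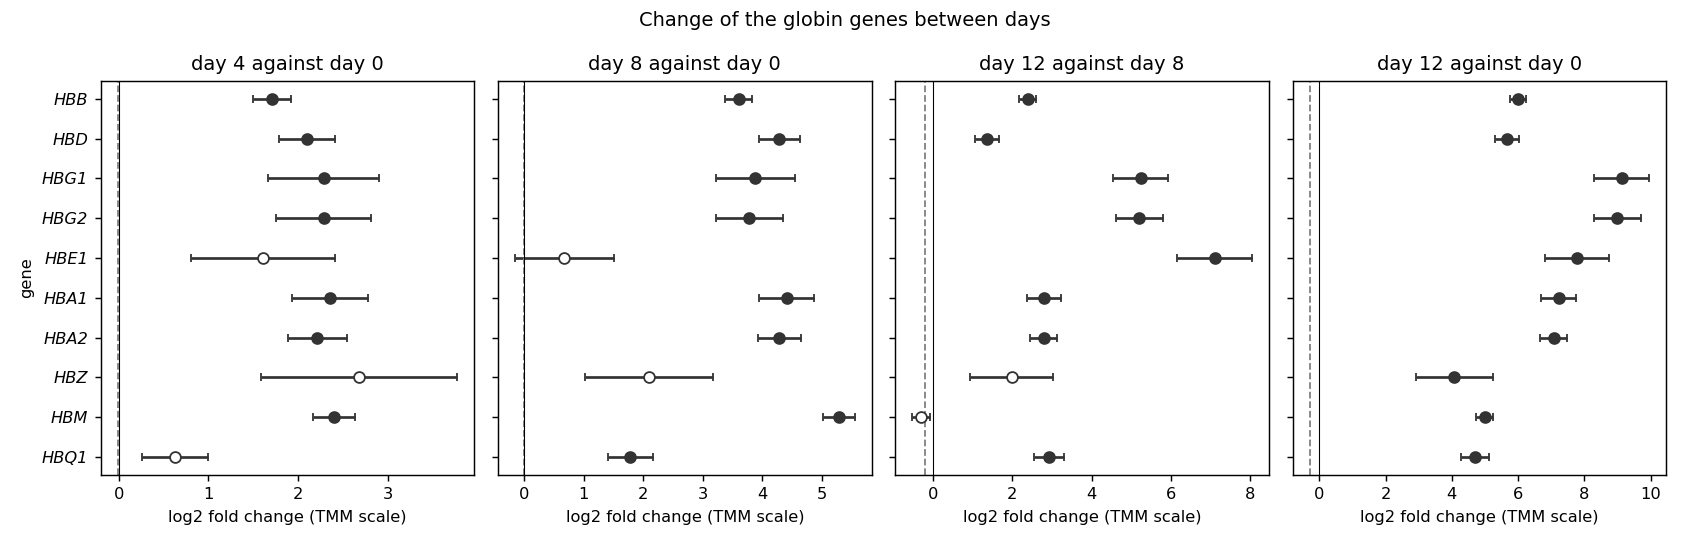
Log2 fold change on the TMM scale for each globin gene in the 4 comparisons (edgeR quasi-likelihood fit of 20 libraries; bars are standard errors; filled points have an adjusted p under 0.05; the dashed line is the median of all 16784 genes). The gain from day 8 to day 12 runs from 1.37 for HBD to 7.10 for HBE1 among the called genes, and HBM lies at -0.29.

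HBB, the adult beta chain, had the highest level of all transcripts of the family in every library. It stood at 22122 and 18579 TPM (libraries A and B) on day 0, 63524 and 56621 on day 4, 151151 and 171964 on day 8 and 332052 and 284879 on day 12. These days did not overlap, and library A was the higher on 9 of 10 days. On the TMM scale HBB rose by a log2 fold change of 1.71 ± 0.21 (SE) by day 4, 3.61 ± 0.23 by day 8 and 6.00 ± 0.26 by day 12, with edgeR adjusted p of 0.000512, 5.18e-07 and 4.76e-10. On log2(TPM + 1) the change of HBB by day 12 was 3.92. Its gain from day 8 to day 12 was 2.39 ± 0.22 (edgeR adjusted p = 6.16e-07) on the TMM scale and 0.93 (limma adjusted p = 0.0278) on log2(TPM + 1).

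HBD, the minor adult delta chain, had a larger fold change than HBB up to day 8 and a smaller one after it. Its level was 599 and 385 TPM on day 0, 1469 and 1241 on day 1, 2119 and 2936 on day 6, 5399 and 6018 on day 7, 5488 and 6952 on day 8 and 6191 and 5580 on day 12. The largest steps were at day 1 (2.45-fold and 3.23-fold) and day 7 (2.55-fold and 2.05-fold), and the day 8 and day 12 levels overlapped. The log2 fold change on the TMM scale was 4.29 ± 0.34 from day 0 to day 8 (edgeR adjusted p = 2.05e-06) and 1.37 ± 0.30 from day 8 to day 12 (edgeR adjusted p = 0.00159). On log2(TPM + 1) the second value was -0.072 (limma adjusted p = 0.846), so the call of HBD from day 8 to day 12 depends on the scale. Within the pair HBB and HBD, HBD made up 3.50% and 3.89% of TPM on day 8 and 1.83% and 1.92% on day 12. The day 12 shares were the lowest of the 20 libraries, below the 2.03% to 4.14% of days 0 to 8. Its share had no linear relation to day over all 20 libraries (r = -0.21, permutation p = 0.383, adjusted 0.438; rho = -0.04, permutation p = 0.874, adjusted 0.874), with r = -0.31 in library A, -0.17 in library B and 0.38 without day 12.

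The fetal gamma genes HBG1 and HBG2 rose from day 0 to day 8 and had larger fold changes than HBB and HBD after it. HBG2 stood at 95.6 and 130 TPM on day 0, 189 and 220 on day 1, 243 and 351 on day 2, 368 and 524 on day 3, 373 and 626 on day 4, 393 and 652 on day 5, 417 and 766 on day 6, 805 and 1324 on day 7, 622 and 1364 on day 8 and 9369 and 19730 TPM on day 12. HBG1 ran below it, from 48.1 and 72.8 TPM on day 0 through 342 and 799 TPM on day 8 to 5219 and 11999 TPM on day 12. In library A both genes were higher on day 7 than on day 8, with HBG1 at 452 TPM on day 7. Library B was the higher on all 10 days for both genes, with a median of 1.74 times library A for HBG1 and 1.65 times for HBG2, yet the step from day 8 to day 12 was alike in both, 15.3-fold and 15.02-fold for HBG1 and 15.1-fold and 14.5-fold for HBG2 in TPM.

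On the TMM scale HBG1 had a log2 fold change of 2.28 ± 0.61 by day 4 (edgeR adjusted p = 0.0486), 3.89 ± 0.66 by day 8 (edgeR adjusted p = 0.000566) and 9.12 ± 0.83 by day 12 (edgeR adjusted p = 3.69e-07). HBG2 had 2.28 ± 0.53, 3.78 ± 0.56 and 8.99 ± 0.71 (edgeR adjusted p = 0.0238, 0.000211 and 9.31e-08). On log2(TPM + 1) the changes from day 0 to day 12 were 7.04 for HBG1 and 6.92 for HBG2. From day 8 to day 12 the changes were 5.23 ± 0.70 and 5.20 ± 0.60 on the TMM scale (edgeR adjusted p = 2.23e-05 and 5.65e-06), and 3.92 and 3.88 on log2(TPM + 1) (limma adjusted p = 4.45e-05 and 1.06e-05). The day 4 calls are less firm. HBG1 lost its call when any of the 4 libraries of days 0 and 4 was left out, HBG2 with 3 of the 4, and HBA1 without library A of day 0 or library B of day 4, which leaves 4 members called in each of the last-named fits.

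As a share of beta-like TPM, HBG1 and HBG2 together made up 0.628% (library A) and 1.06% (library B) on day 0, 0.612% and 1.19% on day 8, and 4.13% and 9.85% on day 12. Over days 0 to 8 the share stayed between 0.612% and 1.66% in 18 libraries, so both day 12 libraries lay above all others. In counts the day 12 shares were 3.87% (95% Wilson interval 3.86% to 3.88%) and 9.25% (9.24% to 9.27%), and the libraries thus differed far beyond counting error. The share correlated with the day by Pearson's r (0.64, permutation p = 0.00142, adjusted 0.00379) and not by rank (rho = 0.40, permutation p = 0.0853, adjusted 0.122). Without the day 12 libraries r was 0.17 (permutation p = 0.486), so the relation rests on those libraries. With day 12 included, r was 0.71 in library A and 0.72 in library B, and in each the day 12 share was the only one above 1.66%. HBG2 made up 62.0% to 69.0% of the gamma pair, and the trend of that share missed the threshold (r = -0.47, permutation p = 0.036, adjusted 0.0576; rho = -0.50, permutation p = 0.0288, adjusted 0.0576), with r = -0.65 in library A, -0.59 in library B and -0.39 without day 12.

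HBE1, the embryonic epsilon chain, was the lowest of the 10 genes on days 0 and 8. It stood at 1.13 and 1.58 TPM on day 0, 4.12 and 7.36 on day 1, 3.22 and 11.5 on day 2, 2.47 and 5.82 on day 3, 2.18 and 5.50 on day 4, 1.63 and 1.60 on day 5, 2.34 and 1.40 on day 6, 1.49 and 4.82 on day 7, 0.775 and 1.99 on day 8 and 43.1 and 114 TPM on day 12. Both libraries thus had a small maximum on day 1 or 2, a low on day 8 or day 6, and their highest level on day 12. The counts behind these levels were 22 and 28 on day 0, 14 and 47 on day 8 and 1446 and 3198 on day 12. The step from day 8 to day 12 was 55.6-fold and 57.4-fold in TPM, and on the TMM scale the log2 fold change was 7.10 ± 0.94 (edgeR adjusted p = 2.05e-05), 237th in order of increase among the 16784 genes. From day 0 to day 4 the log2 fold change was 1.61 ± 0.80 (edgeR adjusted p = 0.313) and to day 8 it was 0.68 ± 0.83 (edgeR adjusted p = 0.553), and neither was called. Even on day 12 HBE1 was 0.0122% and 0.0355% of beta-like TPM. Its share had no trend over the 20 libraries (r = 0.08, permutation p = 0.734, adjusted 0.734; rho = -0.37, permutation p = 0.105, adjusted 0.122), with r = 0.04 in library A and 0.12 in library B. Over days 0 to 8 alone it fell (r = -0.62, permutation p = 0.00368, adjusted 0.00981). Relative to the gamma genes, HBE1 was 0.790% and 0.778% of their summed TPM on day 0, 0.0804% and 0.0922% on day 8, and 0.296% and 0.361% on day 12.

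The alpha genes HBA1 and HBA2 rose in each of the 4 comparisons, with small dips between single days in TPM. HBA1 stood at 2936 and 4953 TPM on day 0, 15259 and 21580 on day 4, 47719 and 61990 on day 8 and 143141 and 141503 on day 12, and HBA2 at 3153 and 4933, 15222 and 18955, 46940 and 56545, and 133197 and 129890 TPM. In library A both were slightly higher on day 7 than on day 8, at 48397 and 47886 TPM, and HBA1 in library B went from 21580 on day 4 to 21410 TPM on day 5. Days 0, 4, 8 and 12 did not overlap, and the libraries of day 12 were closer to each other than those of day 0. On the TMM scale HBA1 rose by a log2 fold change of 4.41 ± 0.46 by day 8 and 7.22 ± 0.53 by day 12 (edgeR adjusted p = 1.53e-05 and 4.46e-08), and HBA2 by 4.29 ± 0.36 and 7.08 ± 0.41 (edgeR adjusted p = 2.78e-06 and 6.16e-09). On log2(TPM + 1) the changes by day 12 were 5.22 for HBA1 and 5.06 for HBA2. From day 8 to day 12 the gains were 2.81 ± 0.43 and 2.79 ± 0.34 on the TMM scale (edgeR adjusted p = 7.44e-05 and 8.94e-06) and 1.39 and 1.35 on log2(TPM + 1). HBA2 made up 46.1% to 52.6% of the pair in all libraries, with no trend past the threshold (r = -0.34, permutation p = 0.145, adjusted 0.193; rho = -0.37, permutation p = 0.107, adjusted 0.122). Within library A r was -0.76 (adjusted permutation p = 0.0214), within library B -0.25, and without day 12 -0.24.

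The ratio of alpha-like (HBA1, HBA2 and HBZ) to beta-like TPM came closer to 1 during differentiation. It was 0.267 and 0.516 on day 0, 0.464 and 0.680 on day 4, 0.601 and 0.655 on day 8 and 0.783 and 0.842 on day 12, below 1 in every library. How far below 1 it lay may depend on how reads common to HBA1 and HBA2 were counted, which is not known. The log2 of the ratio correlated with the day (r = 0.76, permutation p = 8e-05, adjusted 0.00032; rho = 0.73, permutation p = 0.00028, adjusted 0.00112). The relation was also there without day 12 (r = 0.69), in library A (r = 0.97) and in library B (r = 0.83). The ratio was higher in library B on 9 of 10 days, by a median of 1.40 times. The gap did not narrow evenly. It was 0.267 against 0.516 on day 0, 0.486 against 0.761 on day 6, 0.636 against 0.630 on day 7 and 0.783 against 0.842 on day 12. Library B alone lay between 0.613 and 0.761 from day 3 to day 8. Between days 6 and 7 library B passes from 1 table to the next. Whether the sets of tables differ by culture, preparation or sequencing cannot be told apart.

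HBZ, the embryonic zeta chain, followed a course of its own and differed most between libraries. Library A had 8.68 TPM on day 0, 12.04 on day 1, 10.8 on day 2, 21.3 on day 3, 25.3 on day 4, 17.0 on day 5, 14.0 on day 6, 19.3 on day 7, 14.1 on day 8 and 4.97 on day 12. Library B had 8.11, 10.2, 28.2, 77.5, 72.5, 47.5, 50.6, 42.5, 31.6 and 72.7 TPM on the same days. The maximum was on day 4 in library A and on day 3 in library B. On day 4 the level was 2.92 times that of day 0 in library A and 8.94 times in library B. The libraries went opposite ways from day 8 to day 12, with 214 counts in library A and 2603 in library B on day 12. From day 0 the log2 fold change on the TMM scale was 2.68 ± 1.09 on day 4 (edgeR adjusted p = 0.201) and 2.099 ± 1.07 on day 8 (edgeR adjusted p = 0.141), not called. On day 12 it was called at 4.08 ± 1.16 (edgeR adjusted p = 0.0067), but without library B of day 12 it was 1.48 and not called, and on log2(TPM + 1) it was 1.16 (limma adjusted p = 0.334). Between days 8 and 12 it was 1.98 ± 1.05 (edgeR adjusted p = 0.125), -0.64 without library B of day 12 and 2.85, then called, without library A of day 12. With the set of tables as a block HBZ was called in these comparisons too, at 2.36 on day 4, 1.79 on day 8 and 1.64 between days 8 and 12 (edgeR adjusted p = 0.0210, 0.0267 and 0.0257).

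The zeta share of alpha-like TPM was 0.142% and 0.0819% on day 0, 0.0975% and 0.228% on day 3, 0.0149% and 0.0267% on day 8 and 0.00180% and 0.0268% on day 12. It fell with the day (r = -0.61, permutation p = 0.00386, adjusted 0.00772; rho = -0.71, permutation p = 0.00065, adjusted 0.00173). The fall was seen in library A (r = -0.91, adjusted permutation p = 0.00125) and missed the threshold in library B (r = -0.50, adjusted permutation p = 0.232) and without day 12 (r = -0.52, adjusted permutation p = 0.0505). The zeta pseudogene HBZP1, at chr16:163067-165205, gave the most similar profile to HBZ of all genes (r = 0.90 of log2 CPM). Sequence shared by HBZ and HBZP1 was not measured, and how reads common to both were counted is not known. The 2 profiles may therefore not be independent, and the split of counts between them is uncertain. HBZ had 2.82 to 4.24 counts for each HBZP1 count in the 18 libraries of days 0 to 8, and on day 12 it had 2.14 in library A and 16.9 in library B. Library B of day 12 thus stood apart for HBZ and not for HBZP1, which had 100 and 154 counts on that day.

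HBM, the mu globin gene, was, beside HBZ, the only member whose level was highest before day 12 in both libraries. Library A had 42.7 TPM on day 0, 211 on day 4, 353 on day 6, 1151 on day 7, 932 on day 8 and 301 on day 12, and library B had 44.6, 206, 347, 1122, 1278 and 378 TPM. Each library was the higher on 5 of 10 days. The rise to day 8 was the steepest of the 10 genes, a log2 fold change of 5.29 ± 0.27 on the TMM scale (edgeR adjusted p = 1.4e-07). From day 8 to day 12 the level was 0.323 times and 0.296 times in TPM, a log2 fold change of -1.69 on log2(TPM + 1) (limma adjusted p = 1.01e-05). On the TMM scale the change was -0.29 ± 0.22 (edgeR adjusted p = 0.282), close to the -0.20 of the median gene, and it was 0.10 without library B of day 8 and -0.63, then called lower, without library A of day 8. HBM therefore fell as a share of all transcripts and was not called against the bulk of genes.

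HBQ1, the theta globin gene, changed late. It stood at 33.1 and 39.7 TPM on day 0, 49.4 and 52.7 on day 4, 58.5 and 103 on day 8 and 250 and 203 on day 12, with the last day above all others in both libraries. The log2 fold change on the TMM scale was 0.63 ± 0.37 by day 4 (edgeR adjusted p = 0.408), 1.78 ± 0.37 by day 8 (edgeR adjusted p = 0.00246) and 4.71 ± 0.42 by day 12 (edgeR adjusted p = 3.11e-07). On log2(TPM + 1) the change of HBQ1 by day 12 was 2.60. Its gain from day 8 to day 12, 2.93 ± 0.39 (edgeR adjusted p = 2.07e-05), was close in size to that of HBA1 and HBA2, and the difference was not tested.

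**Figure D2:**
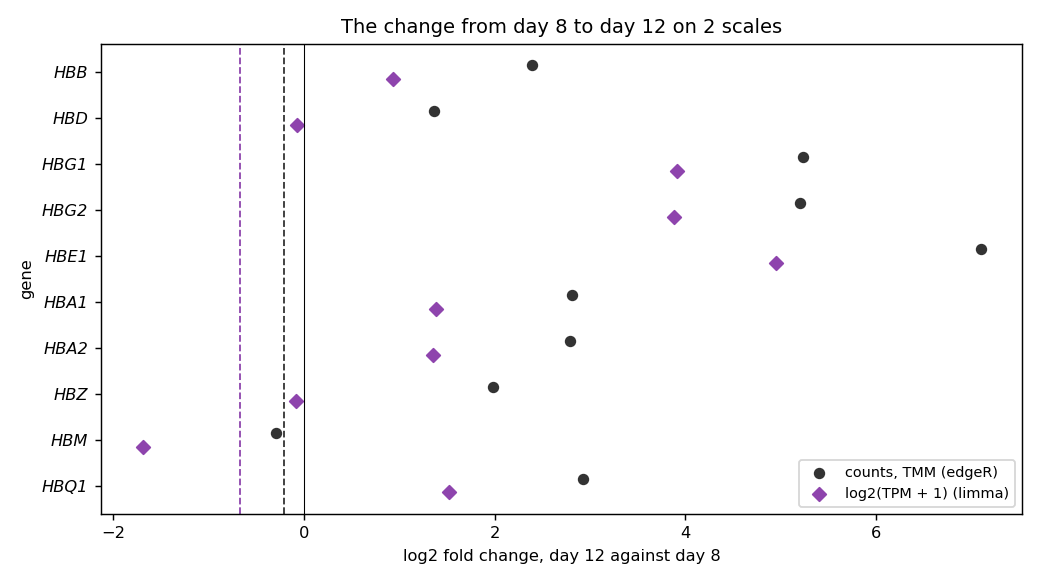
Log2 fold change from day 8 to day 12 of each globin gene from counts scaled by TMM (black circles, edgeR) and from log2(TPM + 1) (purple diamonds, limma), with dashed lines at the median of all genes on each scale (-0.20 and -0.68). HBG1, HBG2 and HBE1 stand highest on both scales, HBD and HBZ lie at -0.072 and -0.080 in TPM, and HBM goes from -0.29 to -1.69.

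The order of the levels in TPM changed during the course. On day 0 it ran HBB, HBA2, HBA1, HBD, HBG2, HBG1, HBM, HBQ1, HBZ, HBE1, and among neighbours only HBA2 and HBA1 overlapped. On day 8 HBM stood above HBG2 and HBG1, at 1105 ± 245 TPM (SD, n = 2) against 993 ± 524 and 571 ± 323, and these neighbours overlapped. On day 12 HBG2 and HBG1 had passed HBD, at 14549 ± 7327 and 8609 ± 4794 TPM against 5885 ± 432 (SD, n = 2), with overlap between HBG2 and HBG1 and between HBG1 and HBD, and HBE1 stood above HBZ with overlap.

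Other transcripts of the beta cluster were counted between the adult and fetal genes. The non-coding BGLT3, at chr11:5244554-5245546, lies next to HBG1. It had 0 and 1 counts on day 0, 60 and 21 on day 7, 12 and 44 on day 8 and 417 and 608 on day 12 (7.80 and 13.6 TPM). It rose from day 8 to day 12 by a log2 fold change of 5.06 ± 0.92 on the TMM scale (edgeR adjusted p = 0.000338), a size near that of HBG1 and HBG2. The pseudogene HBBP1, at chr11:5241954-5243592, had 43.6 and 148 TPM on day 0, 45.0 and 143 on day 8 and 143 and 306 on day 12. Its change from day 8 to day 12 was 2.57 ± 1.21 (edgeR adjusted p = 0.0868) and was not called. Library B was above library A on all 10 days, by 2.13 to 4.605 times, a larger gap than for any of the beta-like members in the median (3.70 times).

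Beyond the cluster, on the far side of HBE1, OR51B6, an olfactory receptor gene at chr11:5351508-5352446, was listed at 0 counts in 17 of 20 libraries and had at most 1 count on days 0 to 8. On day 12 it had 326 and 477 counts, or 6.45 and 11.3 TPM. OR51B5, whose annotated span encloses OR51B6, had 477 counts in library A and 0 in library B on day 12, so reads of this stretch may have been divided differently between the overlapping genes. OR51V1, on the other side of HBB, had 8 and 6 counts on day 12 and up to 11 before, OR51B2 and OR51B4 had 0 and OR52A1 2 and 2. Around the alpha cluster 4 of 7 flanking genes were called higher and 2 lower from day 8 to day 12 on the TMM scale, against 23.8% and 33.4% of all genes. Of those 4, 1 was higher in TPM in both day 12 libraries, 1 was lower and 2 overlapped. NPRL3, whose introns hold the alpha-globin enhancers, was among the higher at 0.53 ± 0.15 (edgeR adjusted p = 0.00888), although its TPM was 113 and 110 on day 8 and 55.5 and 63.8 on day 12. LUC7L, beyond HBQ1, had 23.5 TPM in library A and 92.6 in library B on day 12, and FAM234A 12.5 and 90.2 TPM, while on day 8 they had 28.1 and 20.2, and 23.8 and 23.7 TPM. These genes thus split between the day 12 libraries in the same direction as HBZ. POLR3K and SNRNP25, on the other side of the cluster, fell by 1.65 and 1.87 on the log2 TMM scale (edgeR adjusted p = 0.000215 and 7.8e-07).

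Of 16 listed genes that serve hemoglobin production, 14 were called higher from day 0 to day 8 and 0 lower, against 17.7% and 19.4% of all genes. The 7 listed enzymes of heme synthesis were among them, from 1.36 ± 0.15 for PPOX to 3.15 ± 0.32 for ALAS2, the erythroid enzyme of the first step, on the log2 TMM scale. AHSP, the chaperone of free alpha chains, rose by 1.89 ± 0.29 (edgeR adjusted p = 0.000287), from 1295 and 1546 TPM to 3636 and 3353 TPM. LDB1 and LMO2, partners of GATA1 and TAL1 in the erythroid enhancer complex, had changes of 0.14 and 0.23 and were not called. Between days 8 and 12, 6 were called higher and 7 lower on the TMM scale, against 23.8% and 33.4% of all genes. ALAS2 and FECH and the regulators KLF1, TAL1, NFE2 and EIF2AK1, the heme-regulated kinase, were the higher ones, and 5 heme enzymes with LDB1 and LMO2 the lower ones. These directions depend on the scale, since in TPM 5 of the 6 called higher lay below their day 8 levels in both libraries. AHSP had 1028 and 1488 TPM on day 12 and a log2 fold change of -0.05 ± 0.28 from day 8 (edgeR adjusted p = 0.902).

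For each member up to 3 other genes with the most similar log2 CPM over the 20 libraries were sought, as a description, since all points share the course of differentiation. HBA1 and HBA2 were closest to GYPC, DMTN and NR1H2 (r = 0.99 for each), the first 2 being proteins of the red cell membrane and its skeleton. HBB was closest to KLF3, NR1H2 and WDTC1, HBD to BTG2, CCNDBP1 and TESC, and HBG1 and HBG2 to GPCPD1, MARK3 and RBM38. HBM was closest to ST6GALNAC4 (r = 0.99) and CISH (r = 0.98), and HBQ1 to SH3BP5L (r = 0.996), CDC34 and TBC1D20. HBE1 and HBZ had the least similar neighbours, SPINK4, YBEY and SMIM24 (r = 0.94 to 0.95) for HBE1, and SNX3 (r = 0.88) and MR1 (r = 0.85) after HBZP1 for HBZ. Among the 45 pairs of members r ran from 0.33 (HBM and HBE1) to 0.999 (HBG1 and HBG2), with a median of 0.89.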

How the data were processed

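RNA-seq of HUDEP-2 cells (TruSeq Stranded mRNA, NovaSeq) was trimmed with Trimmomatic 0.38, aligned to hg38 with HISAT2 2.1.0 and quantified with StringTie 2.1.3b, per the submitters' processing notes. The authors deposited read counts per RefSeq transcript, not normalized, and TPM, scaled by the authors for transcript length and to a fixed sum per library. How reads shared by near-identical transcripts were divided is not given in the sources used here. Of 63 value columns, 40 were read, and 23 were not used here (FPKM, and the day 0 columns that stand beside library B of day 12). Columns give the day but no replicate number.

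Counts and TPM of 170322 transcripts were summed by symbol. Tests used edgeR 4.0.16 (filterByExpr, TMM, glmQLFit, glmQLFTest, all 20 libraries, Benjamini-Hochberg) with R 4.3.3, and each standard error was derived from the log2 fold change and its quasi-likelihood F. Tables of separate days were deposited apart from the table of all days, and levels set across them rest on TMM or TPM scaling. Trends with day used permutation tests (100000 resamples; Python 3.11.15, scipy 1.17.1). Likeness between genes was taken on log2 CPM (prior count 2). Alternatives were the exact test, DESeq2 1.42.0, limma 3.58.1 on log2(TPM + 1) and log2(TPM + 0.1), other scaling and filters, a block for the set of tables, the 2 days alone and each library left out. TMM without ribosomal RNA genes and the fits without library B of days 7 and 8 were added after seeing the data. The tests were tried on simulated data. The members, lists and genes named (all members, cluster and flanking genes, a list of 16 genes of hemoglobin production, marker lists, and the 3 genes most like each member) were chosen with earlier results of these data known; some genes of these lists are not reported here and enter none of the list counts.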

Additional observations from a re-analysis of the deposited data

How the results depend on the processing

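Directions and calls of the summed counts and trends not named here were kept under the alternatives run. Members called higher from day 0 to day 4 numbered 4 to 6 when 1 library was left out, against 7, and 8 to 8, 8 to 9 and 9 to 10 in the other comparisons. With only fewer libraries as the difference, the trend of the gamma share was 0.17 without day 12, that of HBZ -0.52 without day 12 and -0.50 in library B alone, and that of HBA2 -0.76 in library A alone. The HBE1 share went to -0.62 without day 12 and the HBD share to 0.38. With 1 library left out r ran from -0.39 to 0.19 for the HBE1 share, from -0.37 to 0.00087 for the HBD share and from -0.53 to -0.38 for the HBG2 share, which passed the threshold in 5 of those fits. Of the values of single genes under alternatives, 605 kept sign and call, 10 gained a call, 14 lost one and 11 changed sign. HBE1 from day 0 to day 8 was -0.35 without library B of days 7 and 8, -0.37 to 1.28 with 1 library left out, and -0.026 and -0.090 on log2(TPM + 1) and log2(TPM + 0.1). From day 8 to day 12 HBZ was -0.64 to 2.86 with 1 library left out, and -0.080 and -0.14 on the TPM scales. HBM was -0.63 to 0.10 with 1 library left out and 0.10 without library B of days 7 and 8, and HBD was -0.072 on both TPM scales. From day 8 to day 12 the median of all genes lay at -0.20 on the TMM scale and at -0.68 on log2(TPM + 1). HBD lay at 1.37 and -0.072 on these scales, HBB at 2.39 and 0.93, HBA2 at 2.79 and 1.35 and HBM at -0.29 and -1.69. Every member lay lower on log2(TPM + 1) than on the TMM scale, so this difference was not particular to HBD. Its cause was not tested. No paired analysis was possible because the columns carry a day but no replicate number, so libraries could be matched only by the set of tables. With that set as a block 8, 9, 9 and 10 members were called higher, where HBZ gained its call in the first 3 comparisons and no other member changed call. The share of all genes called was not taken under any alternative, including those with 1 library left out, so these counts have no background beside them. At 14 to 47 counts on day 8, depth limits HBE1 most.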
